A study of Rattus norvegicus with 8 samples.

Results

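The genes described here encode the ADAM (a disintegrin and metalloproteinase) and ADAMTS (ADAM with thrombospondin motifs) proteases and the ADAMTS-like (ADAMTSL) proteins. They were chosen by name alone, as all rat probes whose gene name on the array was Adam or Adamts or Adamtsl followed by a number, with a possible letter after an Adam number. This gave 48 of 34912 gene names and 76 of 45598 rat probes, with 26 ADAM genes on 38 probes, 18 ADAMTS genes on 31 probes and 4 ADAMTSL genes on 7 probes. The RNA came from primary osteoblast-like cells of the calvaria of 3-5-day-old Wistar rats, which were either not irradiated (0 J/cm2, 4 arrays) or given a fluence of 3.3 J/cm2 over 60 s by an Er:YAG laser, an infrared laser used in dentistry (4 arrays), and was collected 6 h later. The cells of both groups came from the last fractions of a serial enzyme digestion of calvariae without periosteum, and the medium was taken off the irradiated cells just before the laser was applied. In the paper's methods for RNA extraction, dishes were then refilled with osteoinduction medium, which held ascorbic acid, β-glycerophosphate and dexamethasone. That step is described for the qPCR and is not repeated for the arrays. Each sample was hybridised in 1 colour (Cy3) to its own array, and the replicate numbers 1 to 4 were the same in both groups. The scanner files gave both arrays of a number the same rat number, so arrays were compared within a number. The labels do not say whether further samples of a rat were separate cultures or how many animals gave each culture, so the p-values below measure the spread between these samples.

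ADAM proteins are mostly anchored in the cell membrane, where the catalytic members cut the ectodomains off growth factors, cytokines, receptors and adhesion molecules, while other members lack an active site and act in adhesion or in fertilisation. ADAMTS proteins are secreted and act on the extracellular matrix: one group cleaves the proteoglycans aggrecan and versican, another removes the N-propeptides of fibrillar procollagens, which bone-forming cells secrete in quantity. ADAMTSL proteins share the ancillary domains of ADAMTS proteins but have no protease domain, and several of them bind fibrillin microfibrils.

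Several of these genes were read by more than one probe, and the probes did not always give the same reading. The sequences below belong to the probes on which the results turn, as the scanner files give them, 5′ to 3′, with positions on the rat build rn4. Exon, intron or UTR annotation of this build was not used here. For Adam12 the first line is the probe that was lower after irradiation in all 4 pairs and the second a probe further downstream that was not; the array design splits the first over 684 bases. The Adam5 and Adam23 probes are also split, over 1995 and 2517 bases. Of the 4 last lines, each a single stretch of the genome, only the first 30 bases are shown.
Adam12, A_44_P1366276, chr1:193402231-193402914, minus strand: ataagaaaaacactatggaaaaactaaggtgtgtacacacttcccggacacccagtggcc
Adam5, A_64_P159310, chr16:71708747-71710741, plus strand: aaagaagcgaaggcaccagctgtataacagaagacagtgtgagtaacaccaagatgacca
Adam23, A_44_P530253, chr9:62220372-62222888, plus strand: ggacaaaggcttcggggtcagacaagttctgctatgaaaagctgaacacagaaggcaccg
Adam12, A_44_P1101570, chr1:193379776-193379835, minus strand: caggtaaacacagcctcctagttcagtaga
Adamts4, A_44_P1088756, chr13:87151686-87151745, plus strand: gaacattccttttctcatgtgccaataata
Adamtsl5, A_44_P1107208, chr7:10882513-10882572, plus strand: gtctacagagtgaattacaggacagtcagt
Adamtsl5, A_64_P117891, chr7:10879650-10879709, plus strand: taacgagtttggctcctgggagccaagact

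A further pair shows that probes of a gene can overlap in sequence. These Adam22 probes share a run of 49 bases and differ in the bases after it, which are in capitals, although the array design places them at positions that do not overlap. Adam22 encodes a neuronal receptor of LGI proteins without protease activity.
Adam22, A_64_P060685, chr4:22332147-22332206, minus strand: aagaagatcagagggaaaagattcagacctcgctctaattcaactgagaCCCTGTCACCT
Adam22, A_44_P1159964, chr4:22332064-22332123, minus strand: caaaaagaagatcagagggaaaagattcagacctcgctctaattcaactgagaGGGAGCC
Neither passed the filter on dim probes described next, whereas the Adam22 probe at chr4:22325601-22325660, downstream on the same strand, was read on all 8 arrays.

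A probe was tested when more than 50% of its spots were marked well above background on each of the 4 arrays of at least 1 group. This held for 43 of the 76 probes and 29 of the 48 genes, against 57.9% of all rat probes. On all 8 arrays it held for 40 probes, against 53.5% of all rat probes, and 17 probes were well above background on no array, against 25.4%. Of the 3 families, ADAM had 17 tested probes of 38 (12 of 26 genes), ADAMTS 21 of 31 (14 of 18 genes) and ADAMTSL 5 of 7 (3 of 4 genes). No spot of these genes was saturated.

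The sheddases, which cut membrane proteins near the cell surface, were read in 7 of 9 genes. Adam10, the main α-secretase and Notch sheddase, Adam17, the tumour necrosis factor converting enzyme, Adam9, Adam12, Adam15, Adam19 and Adam33 were tested. Adam8, known from leukocytes and osteoclasts, was well above background on 1 non-irradiated and 3 irradiated arrays, and Adam28, known from lymphocytes, on none. Of the ADAMs without protease activity that act in neurons, Adam22 and Adam23 were tested and Adam11 was not. The ADAMs of testis, sperm and epididymis made up 14 genes on 16 probes, of which only Adam1a, Adam5 and Adam7 were tested. Adam1a and Adam7 were well above background on all 8 arrays and Adam5 on 2 non-irradiated and 4 irradiated arrays. The other genes of that group, namely Adam2, Adam3a, Adam4, Adam6, Adam18, Adam24, Adam26a, Adam30, Adam32, Adam34 and Adam34l, were each well above background on at most 1 array.

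Of the ADAMTS genes that cleave aggrecan and versican, Adamts1, Adamts4, Adamts9 and Adamts15 were read on all 8 arrays. Adamts9 was so on 1 of its 2 probes, and the other was well above background on no array. Adamts5, the other main aggrecanase of cartilage, was well above background on a single irradiated array, and its log2 signal lay between 2.80 and 3.60 on the non-irradiated and between 1.76 and 3.73 on the irradiated arrays. Adamts20, a relative of Adamts9, was well above background on 3 non-irradiated and 2 irradiated arrays. The procollagen N-proteinases Adamts2, Adamts3 and Adamts14 were all read, as were Adamts7 and Adamts12, which cleave cartilage oligomeric matrix protein, Adamts13, which cleaves von Willebrand factor, and the fibrillin-related pair Adamts6 and Adamts10. Adamts17 and Adamts18 were tested, the latter on 1 of its 2 probes, and Adamts16 and Adamts19 were not. Among the ADAMTSL genes, Adamtsl2, Adamtsl3 and Adamtsl5 were tested and Adamtsl4 was well above background on no array.

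**Figure D1:**
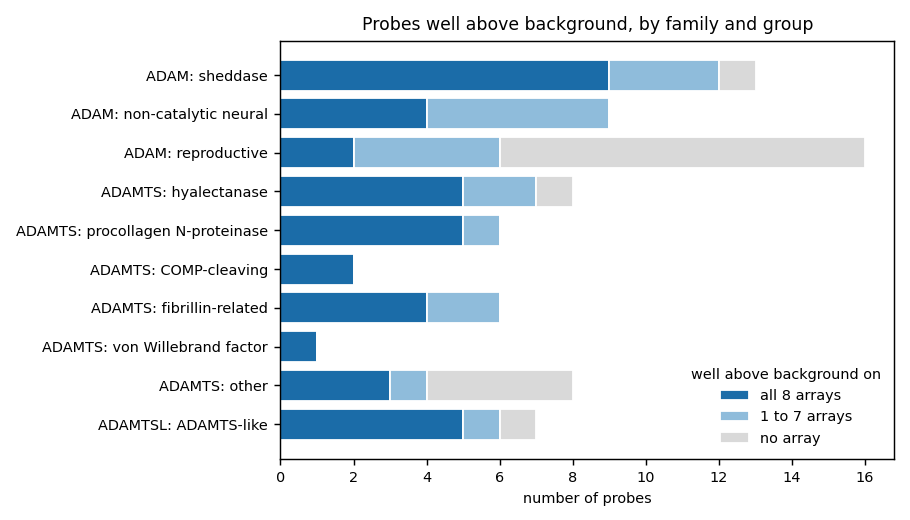
Number of probes (horizontal axis) of each functional group of ADAM, ADAMTS and ADAMTSL genes that were well above background on all 8 arrays (dark blue), on 1 to 7 arrays (light blue) or on no array (grey). The reproductive ADAMs have 10 of their 16 probes on no array, while the sheddases have 9 of 13 and the hyalectanases (the aggrecan and versican cleaving group) 5 of 8 on all 8 arrays.

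The cells carried the transcripts of osteoblasts. The osteoblast markers Runx2, Sp7, Alpl, Bglap, Ibsp, Col1a1, Spp1 and Dmp1 were each well above background on all 8 arrays, and Phex on 2 arrays. Markers of other cells were also read, with Ptprc, the pan-leukocyte marker, on 1 array, Snap25 of neurons on none, and all 5 endothelial and all 5 chondrocyte markers on 8 arrays. The arrays had 26543 to 30490 rat probes well above background and median processed signals of 56.2 to 84.8. All 8 arrays lay on 1 slide and 1 scan; the non-irradiated arrays lay in columns 1 and 3 and the irradiated ones in columns 2 and 4, so slide column and irradiation cannot be told apart.

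Irradiation was compared first, to ask whether the expression of these genes differed 6 h after the laser. No ADAM, ADAMTS or ADAMTSL probe differed between irradiated and non-irradiated arrays after adjustment over all 26399 probes fitted (limma fit of group and replicate number, Benjamini-Hochberg adjustment). All adjusted p-values were 1, and no probe of any gene was past an adjusted p of 0.1. At an unadjusted p under 0.05, 3 of the 43 tested probes stood out, against 2.56% of all probes, of which 1.47% were higher and 1.09% lower. They belonged to Adam12, which was lower, and to Adam5 and Adamtsl5, which were higher after irradiation. The Adam12 and Adam5 probes passed the filter only through the group in which they were higher. With all 8 arrays required, 1 of 40 probes was past this threshold, that of Adamtsl5, against 449 of 24379 of all probes. No probe of these genes had groups that did not overlap, against 0.553% of all probes.

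The fitted differences (log2 signal, irradiated minus non-irradiated) of the 17 ADAM probes had a median of -0.013 and ran from -0.68 to 0.54, with 7 higher and 10 lower. Those of the 21 ADAMTS probes had a median of -0.00038 and ran from -0.19 to 0.19, with 10 higher and 11 lower. Those of the 5 ADAMTSL probes had a median of -0.029 and ran from -0.16 to 0.32, with 2 higher and 3 lower. The median was -0.0026 over all 43 probes and 0.0016 over all probes fitted, of which 50.5% were higher. The median standard error was 0.14 for the 43 probes, and for 39 of them the 95% interval of the difference lay within a 2-fold change in either direction, for 29 within a 1.5-fold change. The 4 wider ones were those of Adam12, Adam5, Adam9 and Adamts12.

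**Figure D2:**
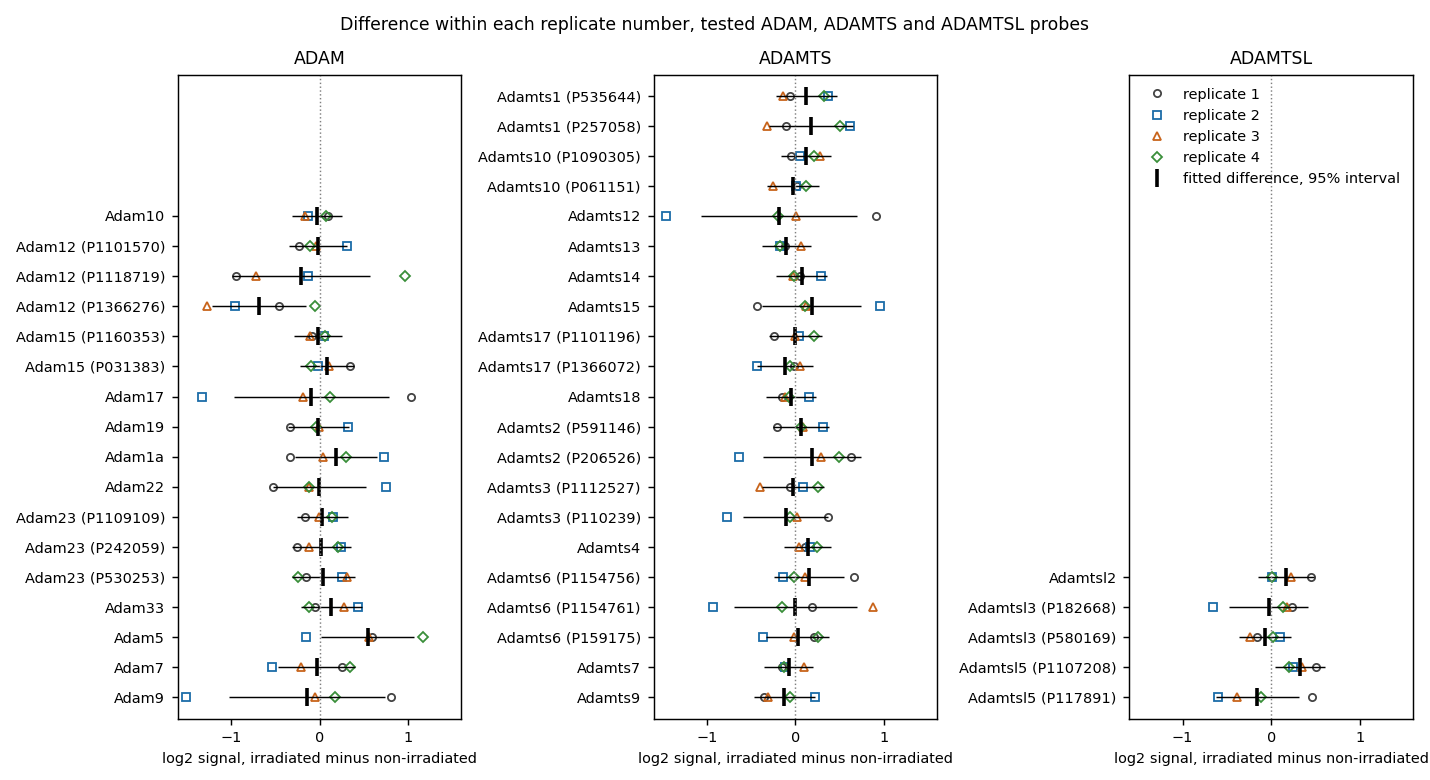
Difference in log2 signal, irradiated minus non-irradiated (horizontal axis), within each of the 4 replicate numbers (open symbols) for the 17 ADAM, 21 ADAMTS and 5 ADAMTSL probes tested, with the fitted difference (black tick) and its 95% interval (line); where a gene has several tested probes, the end of the probe name is given in brackets. The intervals of all but 3 probes, of Adam12, Adam5 and Adamtsl5, include 0.

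Adam12, also called meltrin α, is an ADAM of myoblasts and mesenchymal cells. On its probe split over 684 bases, the log2 signal was 5.89, 4.47, 4.41 and 4.77 on non-irradiated replicates 1 to 4 and 5.44, 3.52, 3.14 and 4.72 on irradiated replicates 1 to 4. It was lower after irradiation in all 4 pairs, clearly so in replicates 2 and 3 and barely in replicate 4. The groups overlapped, as irradiated replicates 1 and 4 both lay above non-irradiated replicates 2 and 3. All 4 pairs lower held for 3.64% of all probes. The fitted difference was -0.68 ± 0.22 (SE), with an unadjusted p of 0.020 and an adjusted p of 1 in limma. This probe was well above background on 4 non-irradiated but only 3 irradiated arrays, so it passed the filter through the group in which it was higher.

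The other Adam12 probes did not pass the unadjusted threshold over the 4 pairs. On the probe further downstream the signal was 15.98, 14.61, 14.28 and 14.74 on non-irradiated and 15.74, 14.92, 14.23 and 14.64 on irradiated replicates 1 to 4. The pairs lay close together, with irradiated replicate 2 above and the other three below their partners, and the fitted difference was -0.02 ± 0.13. On the upstream probe the signal was 4.72, 4.09, 4.77 and 4.34 on non-irradiated and 3.78, 3.96, 4.05 and 5.30 on irradiated replicates. Here replicates 1 to 3 were lower and replicate 4 was higher after irradiation, with a fitted difference of -0.21 ± 0.32. Without replicate 4 that difference was -0.60, with an unadjusted limma p of 0.038. With the probes of the gene averaged, the difference was -0.30 ± 0.18 (unadjusted p = 0.143).

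Adam5, a testis ADAM, gave a log2 signal of 3.75, 4.19, 3.62 and 2.95 on non-irradiated and 4.34, 4.04, 4.17 and 4.12 on irradiated replicates 1 to 4. It was higher after irradiation in replicates 1, 3 and 4 and slightly lower in replicate 2, and the groups overlapped through non-irradiated replicate 2. The fitted difference was 0.54 ± 0.22, with an unadjusted p of 0.047 and an adjusted p of 1. It too passed the filter through its higher group alone.

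Adamtsl5, an ADAMTS-like protein without protease domain, was read by probes whose differences had opposite signs. On A_44_P1107208 the log2 signal was 5.31, 4.78, 4.57 and 4.84 on non-irradiated and 5.81, 5.03, 4.92 and 5.04 on irradiated replicates 1 to 4. Every pair was higher after irradiation, as in 3.82% of all probes, while the groups overlapped because replicate 1 was high in both. The fitted difference was 0.32 ± 0.11, with an unadjusted p of 0.030 and an adjusted p of 1. On A_64_P117891, placed upstream of it, the signal was 4.38, 5.02, 5.67 and 5.65 on non-irradiated and 4.85, 4.42, 5.29 and 5.54 on irradiated replicates. This probe was lower after irradiation in 3 pairs and higher in replicate 1, with a fitted difference of -0.16 ± 0.19. Averaged, the Adamtsl5 probes gave 0.08 ± 0.14 (unadjusted p = 0.575).

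**Figure D3:**
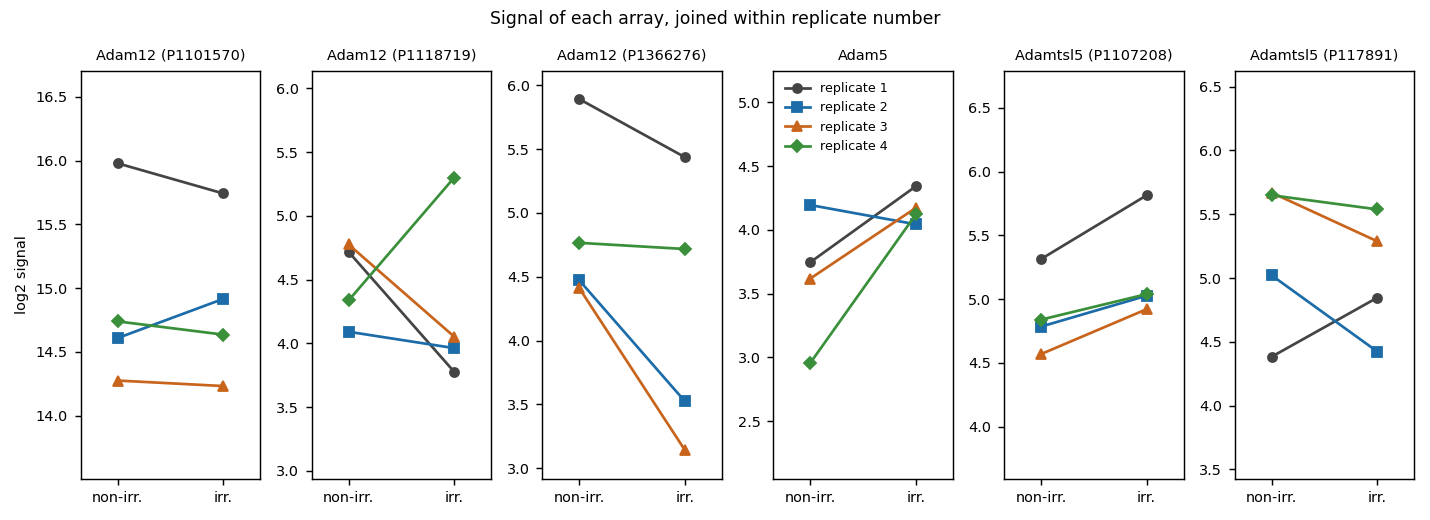
Log2 signal (vertical axis, each panel spanning the same range of log2 units) of the tested probes of Adam12, Adam5 and Adamtsl5 on each non-irradiated and irradiated array, joined within replicate number. Adam12 (P1366276) is lower and Adamtsl5 (P1107208) higher after irradiation in all 4 replicates, whereas the other probes of these genes move both ways.

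None of the 3 probes passed the unadjusted threshold with normexp background correction, with the deposited log2 values or with no replicate block. When single replicate numbers were left out, the Adam12 probe missed it without replicate 2 or 3, at limma p-values of 0.058 and 0.081. Adam5 missed it without replicate 1, 3 or 4, at 0.096, 0.116 and 0.181, and Adamtsl5 at 0.114, 0.109 and 0.072. In turn, the upstream Adam12 probe passed without replicate 4 and an Adamts2 probe, A_44_P206526, without replicate 2.

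The sheddases most studied in other cells showed pairs that moved both ways. Adam10 gave a log2 signal of 6.85, 6.98, 6.83 and 7.13 on non-irradiated and 6.95, 6.85, 6.66 and 7.21 on irradiated replicates 1 to 4. The groups covered nearly the same range, and the fitted difference was -0.03 (95% interval -0.31 to 0.25). Adam17 gave 4.72, 5.12, 5.29 and 5.81 on non-irradiated and 5.75, 3.79, 5.10 and 5.93 on irradiated replicates. Adam9, or meltrin γ, gave 6.63, 7.78, 7.88 and 7.47 on non-irradiated and 7.44, 6.28, 7.84 and 7.64 on irradiated replicates. In both genes replicate 1 was higher and replicate 2 lower after irradiation, while replicates 3 and 4 hardly differed. The fitted differences were -0.09 ± 0.36 for Adam17 (95% interval -0.97 to 0.79) and -0.14 ± 0.36 for Adam9 (-1.02 to 0.74), so changes inside these wide intervals were not detectable here. Adamts12 had the same arrangement of pairs, with 0.91 in replicate 1 and -1.45 in replicate 2, and a fitted difference of -0.19 ± 0.36. These 3 genes had the largest standard errors of the 43 probes, and replicates 1 and 2 moved in opposite directions in each of them.

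Among the ADAMTS genes, those with the lowest unadjusted p were Adamts4 (0.252) and Adamts10 (0.340). Adamts4, or aggrecanase-1, was slightly higher after irradiation in all 4 pairs, with differences of 0.11, 0.16, 0.04 and 0.24 and a fitted difference of 0.14 ± 0.11. Adamts10, which binds fibrillin-1, gave 10.41, 10.57, 10.17 and 10.09 on non-irradiated and 10.36, 10.62, 10.45 and 10.30 on irradiated replicates 1 to 4. Its replicates 2 to 4 were higher and replicate 1 slightly lower after irradiation, with a fitted difference of 0.12 ± 0.12, and its other probe gave -0.03 ± 0.12. Adamtsl2, which binds fibrillin-1 and LTBP1, gave 5.96, 6.25, 6.20 and 6.26 on non-irradiated and 6.42, 6.25, 6.43 and 6.27 on irradiated replicates. It was higher in all 4 pairs, though by no more than 0.01 in replicates 2 and 4, and the fitted difference was 0.17 ± 0.13 (unadjusted p = 0.232). For a single gene, 4 pairs moving the same way give a two-sided exact sign-flip permutation p of 0.125, which is the smallest that 4 pairs allow.

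The replicate numbers, which stand for the rat numbers, were compared next in the same fit. These differences were wide for part of the genes: 12 of the 43 tested probes differed among replicate numbers (moderated F-test in limma, Benjamini-Hochberg adjusted p under 0.05 over all probes), against 3.27% of all probes. They belonged to Adam12, Adam19 and Adam23 among the ADAMs (5 of 17 probes) and to Adamts1, Adamts2, Adamts4, Adamts7, Adamts9 and Adamts17 among the ADAMTS genes (7 of 21 probes), and to no ADAMTSL gene (0 of 5 probes). By group, 4 of 5 tested probes of the aggrecan and versican cleaving ADAMTS genes passed. So did 3 of 4 of the neuronal ADAMs without protease activity and 2 of 10 of the sheddases. The count was 1 of 2 for Adamts7 and Adamts12, 1 of 3 for Adamts17 and Adamts18, and 1 of 5 for the procollagen N-proteinases. It was 0 of 5 for the fibrillin-related pair, 0 of 3 for the reproductive ADAMs and 0 of 1 for Adamts13. Of the 12 probes, 11 had their highest replicate mean in replicate 1, and 9 their lowest in replicate 4 and 3 in replicate 3. Among the probes of any gene that passed the F-test, 54.8% were highest in replicate 1 and 35.6% lowest in replicate 4. Of the 24 tested probes above the median signal of all probes fitted, 11 passed, against 3.38% of all probes above it; of the 19 below, 1 passed, against 3.16%. In RNA from a whole culture, fewer cells of a type and less RNA per cell cannot be told apart.

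Adamts4 had the smallest F-test p of these genes (adjusted p = 0.009). Its log2 signal was 10.85, 9.42, 9.27 and 8.50 on non-irradiated and 10.96, 9.59, 9.31 and 8.73 on irradiated replicates 1 to 4. Both arrays of each number lay within a narrow band, replicate 1 was far above the others, replicate 4 lowest, and the replicate means spanned 2.29 log2 units or 4.89-fold. Adamts1, which cleaves versican and aggrecan, also had replicate 1 highest and replicate 4 lowest on both probes. On the probe at chr11:25434383-25434442 it gave 14.63, 13.67, 13.49 and 12.78 on non-irradiated and 14.57, 14.04, 13.35 and 13.10 on irradiated replicates. On the other, at chr11:25434208-25434267, it gave 9.71, 8.61, 8.35 and 7.27 against 9.61, 9.23, 8.03 and 7.77. The replicate means spanned 3.16-fold and 4.39-fold. Adamts9, a further versican cleaving enzyme, gave 10.72, 10.50, 10.22 and 8.996 on non-irradiated and 10.36, 10.72, 9.91 and 8.93 on irradiated replicates (limma F-test, adjusted p = 0.032). It was low in replicate 4 alone. Adamts15 had a like spread of 3.60-fold, with an adjusted F-test p of 0.069.

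Adamts2, the main procollagen I N-proteinase, differed between its probes. On the probe at chr10:36380091-36380150 it gave 11.54, 9.89, 9.94 and 9.74 on non-irradiated and 11.34, 10.20, 10.03 and 9.80 on irradiated replicates 1 to 4 (limma F-test, adjusted p = 0.026). Only replicate 1 stood apart there, above the others by over 1 log2 unit in both groups. On the upstream probe at chr10:36377019-36377078 it gave 7.89, 7.92, 7.71 and 7.90 on non-irradiated and 8.51, 7.28, 7.99 and 8.39 on irradiated replicates. That probe showed no such order (limma F-test, adjusted p = 0.465), and the fitted difference after irradiation was 0.19 ± 0.23, against 0.06 ± 0.13 on the first. Without replicate 2 the difference on the upstream probe was 0.47, with an unadjusted limma p of 0.011. Adamts7, which cleaves cartilage oligomeric matrix protein, was also highest in replicate 1, with replicate means spanning 2.22-fold. One of the Adamts17 probes was lowest in replicate 4, spanning 2.66-fold, while the other spanned 1.31-fold.

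Among the ADAMs, Adam23, a receptor of LGI proteins known from neurons, passed on all 3 of its probes. On the one at chr9:62253172-62253231, spotted 10 times on each array, it gave 12.92, 11.60, 11.56 and 10.62 on non-irradiated and 12.75, 11.75, 11.55 and 10.76 on irradiated replicates 1 to 4 (limma F-test, adjusted p = 0.014). The order of the numbers was the same in both groups, with replicate 1 highest and replicate 4 lowest, spanning 4.44-fold, and the other probes spanned 3.11-fold and 3.06-fold. Adam19, or meltrin β, gave 14.14, 12.44, 12.23 and 12.93 on non-irradiated and 13.81, 12.76, 12.23 and 12.89 on irradiated replicates (limma F-test, adjusted p = 0.034). The downstream Adam12 probe, whose values stand above, had an adjusted F-test p of 0.036. These Adam19 and Adam12 probes were highest in replicate 1 and lowest in replicate 3 in either group, spanning 3.35-fold and 3.05-fold. The other Adam12 probes did not pass (limma F-test, adjusted p = 0.065 and 0.562), nor did the meltrin Adam9 (0.513). By contrast, the replicate means of Adam10 spanned 1.34-fold, those of Adam7 1.19-fold and those of Adamts13 1.17-fold, and none of these 3 passed. Of the ADAMTSL probes, the smallest adjusted F-test p was 0.090, on an Adamtsl3 probe with 10.98, 10.15, 10.17 and 10.12 on non-irradiated and 10.82, 10.24, 9.92 and 10.14 on irradiated replicates, again with replicate 1 highest. The adjusted F-test p-values of the Adamtsl5 probes were 0.102 and 0.141.

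**Figure D4:**
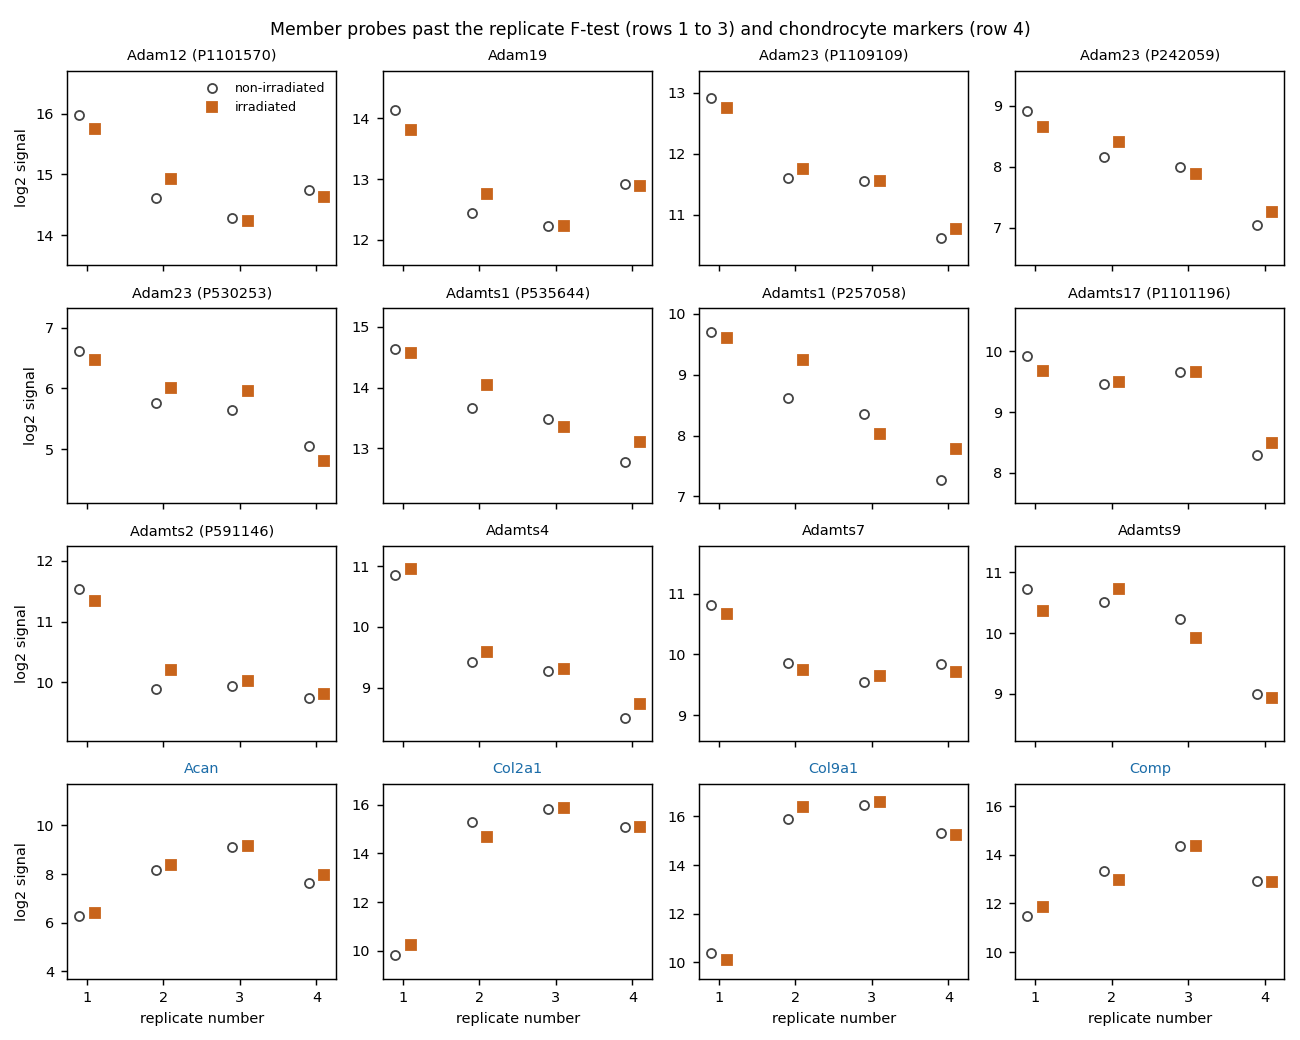
Log2 signal (vertical axis) by replicate number (horizontal axis) on non-irradiated (open circles) and irradiated (filled squares) arrays for the 12 ADAM and ADAMTS probes that differed among replicate numbers, in panels spanning the same range, and, in the bottom row with a wider range, for 4 chondrocyte markers. The member probes are highest in replicate 1 in 11 of the 12 panels, while Col2a1 and Col9a1 are lowest there by more than 4 log2 units.

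Markers of another cell type moved with the replicate number. Col2a1, the fibrillar collagen of cartilage, gave 9.83, 15.29, 15.82 and 15.07 on non-irradiated and 10.24, 14.67, 15.88 and 15.11 on irradiated replicates 1 to 4, and Col9a1, Acan and Comp were also lowest in replicate 1. Of the 5 chondrocyte markers 4 passed the F-test (Sox9 did not), none had an unadjusted p under 0.05 for irradiation, none was at background, and their summed linear signal ran from 7212 to 172700 on non-irradiated and from 7461 to 183100 on irradiated arrays. Alpl and Bglap of the osteoblast list, Kdr and Tek of the endothelial list and Lyz2 of the macrophage list passed the F-test as well, Alpl and Bglap with their lowest values in replicate 4. The part of these cell types in the values of the ADAM and ADAMTS genes was not tested.

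The count of 12 depended on replicates 1, 3 and 4. Without replicate 1 no probe of these genes passed the F-test, without replicate 4 none, without replicate 3 only that of Adamts4, and without replicate 2 all 12 passed among 19. The counts over all probes fell likewise, to 0 without replicate 1, 107 without replicate 4 and 111 without replicate 3, and rose to 5464 (20.7%) without replicate 2. With no filter on dim probes none of these genes passed, and 0.16% of all probes did. With the probes of a gene averaged, a setting chosen after seeing the data, 6 of 29 genes passed (Adam19, Adam23, Adamts1, Adamts4, Adamts7 and Adamts9), against 4.04% of all genes, while Adam12, Adamts2 and Adamts17 had adjusted limma F-test p-values of 0.118, 0.066 and 0.122.

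The regulators and substrates of these proteases were read from 3 further lists. Each listed gene, like each cell type marker above, was read on its brightest tested probe alone, or its brightest probe if none was tested. Timp3 had 3 tested probes and Sox9 had 4, and the others of such genes were not looked at. Of 18 regulators of ADAMs (TIMPs, Reck, iRhoms, Frmd8, proprotein convertases and TspanC8 tetraspanins), 17 were tested, none had an unadjusted p under 0.05 for irradiation, and the median difference was 0.0097. Rhbdf1 and Frmd8 were higher and Tspan5 was lower in all 4 pairs. Over all probes fitted, 3.82% were higher and 3.64% lower in all 4 pairs. Timp3, the main TIMP of ADAM17 and the aggrecanases, differed among replicate numbers, with 14.11, 12.86, 12.95 and 12.34 on non-irradiated and 13.94, 13.09, 12.86 and 12.68 on irradiated replicates 1 to 4 (limma F-test, adjusted p = 0.043). It was highest in replicate 1 and lowest in replicate 4 in both groups, as Adamts4 and Adamts1 were. Timp4 passed too (limma F-test, adjusted p = 0.015) and was lowest in replicate 1. Of 20 proteins shed by ADAM10 and ADAM17, 17 were tested, and 1, Notch3, had an unadjusted p under 0.05, being higher after irradiation in all 4 pairs by 0.50 ± 0.20 (unadjusted p = 0.047, adjusted p = 1). The list median was 0.015. Tnfsf11 and Btc of that list were well above background on no array and Tnf on 1.

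Of 18 matrix substrates and partners of the ADAMTS proteins, 16 were tested, none had an unadjusted p under 0.05 and the median difference was -0.0055. Acan, the aggrecan core protein, and Lrp1, an endocytic receptor of ADAMTS proteases, were higher in all 4 pairs, by 0.18 ± 0.11 and 0.17 ± 0.11. Fbln1, a cofactor of Adamts1, was lower in all 4 pairs, by -0.19 ± 0.11. Of all probes fitted, 3.82% were higher and 3.64% lower in all 4 pairs. Acan gave 6.26, 8.16, 9.12 and 7.65 on non-irradiated and 6.41, 8.37, 9.15 and 7.95 on irradiated replicates, so that it was lowest in replicate 1, where Adamts4 and Adamts1 were highest, and highest in replicate 3. Vcan, versican, was highest in replicate 1 in both groups, with an adjusted F-test p of 0.141. Col1a1 and Col1a2, whose products Adamts2 processes, spanned 0.23 and 0.20 log2 units over the replicate means and did not pass.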

How the data were processed

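Total RNA (200 ng per sample) was labelled with Cy3 and hybridised to Agilent SurePrint G3 arrays. The authors extracted the deposited intensity of each spot with Agilent Feature Extraction 11.0.1.1, per the file headers on build rn4, and separately deposited quantile-normalised log2 values (24029 rows, 42 of these genes), used as an alternative.

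Here the processed intensity of rat probes was log2-transformed, spots marked as outlying were left out (446 to 690 per array), arrays were quantile normalised and spots of a probe averaged. limma 3.58.1 in R 4.3.3 fitted group and replicate number, and the code was tested on simulated data. Of 26404 probes passing the filter, 26399 could be fitted. Array values were given for probes with an unadjusted p under 0.05, those with the 2 lowest p or 3 lowest F-test p of a family, those moving one way in all 4 pairs, and Adam9, Adam10, Adam12, Adam17, Adamts1, Adamts2, Adamts4 and Adamts5. Members, roles and lists were chosen with earlier results of these data known. Within replicate numbers, deviations from group means correlated at 0.722, 0.406, 0.684 and 0.873 over the 43 tested probes, and at 0.608, 0.0553, 0.570 and 0.749 over all. Over all probes, non-irradiated replicate 2 correlated best with irradiated replicate 3, and the other non-irradiated replicates with their own partners. The pairing comes from the rat numbers and the labels.

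Alternatives were another scaling, background correction, filter, outlier handling, variance prior and block, averaging by gene, and leaving out each replicate number. The number of arrays limits the precision.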

Additional observations from a re-analysis of the deposited data

Results flagged for a closer look

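Among the 4 arrays of a group, 1 lay far from the other 3 in 9 of 86 sets of values of the tested probes (gap over range above Dixon's limit for 4 values). Chance marks about 1 in 20 such sets. With the probes of the listed regulators, substrates and markers included, 18 of 240 sets (7.5%) were past the limit. In several of them the partner array of the same replicate number lay on the same side.

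Non-irradiated replicate 1 stood apart for Adam22 (A_42_P732417), at 8.75 against 7.22 to 7.43 on the others and 8.23 on its irradiated partner. It did so for Adamts2 (A_42_P591146), at 11.54 against 9.74 to 9.94, with a partner at 11.34, and for Adamtsl3 (A_44_P580169), at 10.98 against 10.12 to 10.17, with a partner at 10.82. Irradiated replicate 1 stood apart for Adamts7, at 10.66 against 9.64 to 9.74, with a partner at 10.82, and for Adamtsl5 (A_44_P1107208), at 5.81 against 4.92 to 5.04, with a partner at 5.31. All 5 were higher in replicate 1 than on the other arrays of the group.

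Non-irradiated replicate 3 was low for the other Adamts2 probe (A_44_P206526), at 7.71 against 7.89 to 7.92, and for Adamtsl3 (A_44_P182668), at 8.13 against 8.38 to 8.42. Irradiated replicate 3 was high for Adamts3 (A_64_P110239), at 5.50 against 5.06 to 5.11. Irradiated replicate 4 was low for Adamts17 (A_44_P1101196), at 8.50 against 9.50 to 9.68, and its partner was low too, at 8.29.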

How the results depend on the processing

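No alternative brought any of these probes past an adjusted p of 0.1 for irradiation. With no difference called, none could be reversed. The 3 probes past the unadjusted threshold kept their sign in every alternative that tested them. Of 594 fold changes under 14 alternatives, 590 moved by less than 1 SD of the pair differences, but many could not move that far. Another filter, block or variance prior leaves the difference as it is, and leaving out 1 of 4 pairs cannot shift it by 1 SD. The sign was kept in 34, 30, 35 and 37 of the 43 probes without replicate 1, 2, 3 and 4. The count of probes at an unadjusted p under 0.05, 3 in the comparison as reported, was 0 with normexp background correction, 0 with the deposited log2 values, 0 with no replicate block, and 1 each with all 8 arrays required, with the replicate block as a random effect, with a trended robust variance prior and with probes averaged by gene; leaving out 1 replicate number gave 0 to 3. With or without the block the differences themselves are the same, and the block changed no other call. The median difference ranged from -0.011 to 0.053 for ADAM, -0.039 to 0.049 for ADAMTS and -0.081 to 0.18 for ADAMTSL when 1 replicate number was left out. Of the 12 probes differing among replicate numbers, the count was 0 with no filter, 6 genes with probes averaged by gene (chosen after seeing the data), 12 to 16 under the other settings that kept all arrays, and 0 to 19 when 1 replicate number was left out; the cause was not tested. A slide block was not run because all arrays lay on 1 slide. Of the deposited rows, 4 were for probes that did not pass the filter here.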
